A study of Iris tectorum with 6 samples.

Results

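CL1295 is a cluster of assembled leaf transcripts of Iris tectorum, a rhizomatous garden iris, and it was taken as every unigene whose identifier carries that cluster number, which gave 13 contigs of 111791 unigenes with reads. A unigene is an assembled transcript, and contigs of a cluster share its number in their identifiers (no source used here gives the grouping rule). The cluster was picked because some of its contigs had reads in only 1 of the groups while their sum did not move, so its levels are given as a description and no test is made on them. Leaves came from plants in swine wastewater in a glasshouse, flooded to a height of 12.3 ± 0.8 cm according to the labels' protocols. In the co-culture group the iris shared the water with the green microalga Dictyosphaerium sp., and the plant alone group had no added alga. Both groups share the wastewater, the flooding and the tissue, and the labels give no genotype, cultivar or age. RNA sequencing libraries of co-culture replicates 1, 2 and 3 and of plant alone replicates 2 and 3 were used, and replicate 1 of plant alone was not used here. The labels do not say whether replicates were separate plants or tanks, so p-values measure only the spread between these libraries, which may be technical.

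Nucleolin is an abundant RNA-binding protein of the nucleolus, the site where ribosomal RNA is made, and it takes part in the transcription of ribosomal RNA genes and in the processing of their transcripts. Heterogeneous nuclear ribonucleoproteins (hnRNPs) bind RNA polymerase II transcripts in the nucleus and act in splicing, export and stability. hnRNP R is best known from mammals, where it binds messenger RNA in neurons. Both kinds of protein carry RNA recognition motifs, the most common RNA-binding domain of eukaryotes, so proteins of either name can resemble each other in sequence.

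The name of the cluster rests on protein hits, and the annotations did not point one way. The best hit was a nucleolin of oil palm (Elaeis guineensis) for 7 contigs and an hnRNP R of the orchid Dendrobium catenatum for 5 contigs, and CL1295.Contig14 had no hit. All 12 contigs with a hit also carried the KEGG identifier of JMJD6, an enzyme described in mammals as a histone arginine demethylase. The KEGG identifier of nucleolin was listed for 2 contigs, CL1295.Contig3 and CL1295.Contig12, and that of the nuclear pore protein Nup62 for 1 contig, CL1295.Contig3. No gene ontology term was attached to any contig. The names nucleolin and hnRNP R are therefore used below as names of the best protein hit and not of an established function. The contigs with a hit were between 2514 bases (CL1295.Contig15) and 3888 bases (CL1295.Contig5) long, and CL1295.Contig14 was 451 bases long.

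The libraries held between 20968769 and 22975621 expected counts in co-culture and between 18616931 and 18881996 in plant alone. The leaf marker list, the small subunit of Rubisco, Rubisco activase and chlorophyll a-b binding proteins, had 76 members, of which between 66 and 72 had reads in each library. Their summed share of counts was between 0.430% and 3.51% in co-culture and between 0.569% and 1.02% in plant alone. Unigenes with a hit to a green alga, 369 in all, took between 0.198% and 0.227% of counts in co-culture and between 0.276% and 0.332% in plant alone. All 12 contigs of CL1295 with a hit had it to a monocot protein. The part of these differences in the results below was not tested. In whole leaves, fewer cells of a type and less RNA per cell cannot be told apart.

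The cluster as a whole stood at nearly the same mean level in both groups. Levels are counts scaled to library size (CPM) with TMM factors, which correct for differences in library composition. Summed over the 13 contigs, co-culture 1, 2 and 3 had 225.1, 244.9 and 242.3 CPM, against 208.5 and 263.0 CPM in plant alone 2 and 3. The co-culture libraries all lay between the plant alone libraries. In the 5 libraries between 99.2% and 99.5% of the 77613 clusters and single unigenes stood at or below the sum. That rank is of summed counts, which grow with contig length and with the number of contigs added. It therefore does not rank abundance per unit of length. The fitted log2 fold change of co-culture over plant alone was 0.02, and DESeq2 gave 0.05 ± 0.28 (SE). That error leaves room for a change of the sum in either direction. The near-equality of the means is part of what the cluster was picked for. Among all cluster sums, edgeR called 0% and DESeq2 1.9% at an adjusted p of 0.05, 0.574% higher and 1.33% lower.

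Beneath that sum, contig shares differed between the groups, although 7 of the 13 contigs had reads in all 5 libraries. Sequence identity between contigs was not measured, so whether they are isoforms, alleles or paralogs is not known here. The share of a contig is its part of the expected counts of the cluster in a library, and near-identical contigs can share reads that the authors' estimator divides between them. Each library had reads on 10 contigs, except plant alone 3 with 11. CL1295.Contig11 (hnRNP R) was the leading contig by counts in every library except co-culture 3, where CL1295.Contig15 (hnRNP R) led with 22.1%. CL1295.Contig11 took 30.1%, 26.2% and 21.5% of the cluster in co-culture 1, 2 and 3, against 37.0% and 24.3% in plant alone 2 and 3. The share of CL1295.Contig11 overlapped between the groups.

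**Figure D1:**
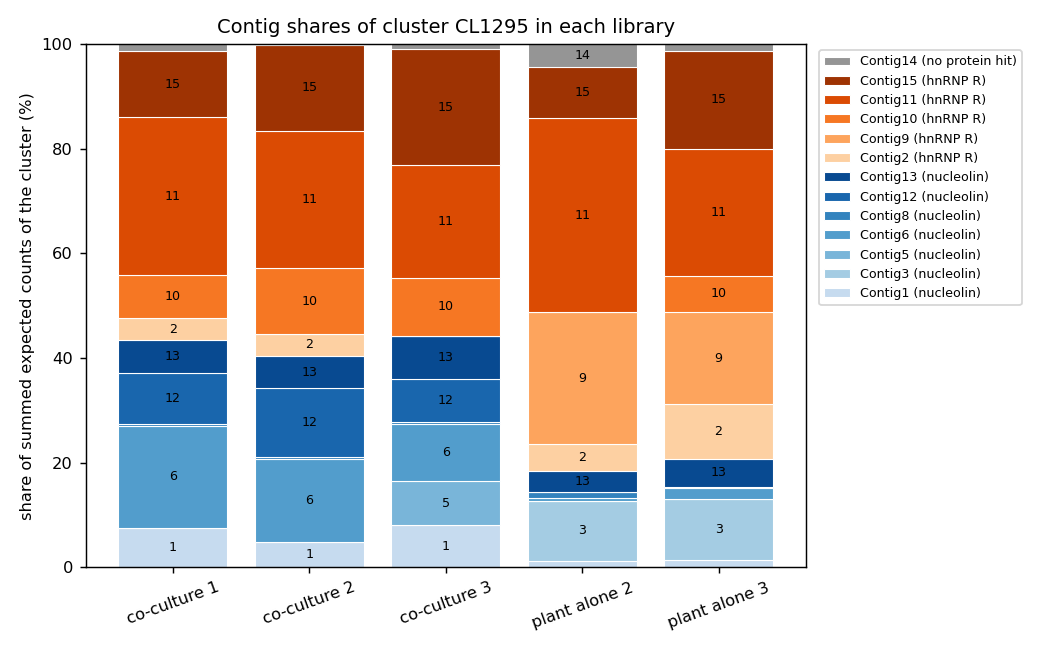
Share of each contig in the summed expected counts of CL1295 (vertical axis, percent) in each library, with nucleolin-hit contigs in blue, hnRNP R-hit contigs in orange and the contig without a hit in grey; numbers inside the bars are contig numbers. CL1295.Contig12 appears only in the co-culture bars and CL1295.Contig3 and CL1295.Contig9 only in the plant alone bars, and the blue part is between 40.4% and 44.3% of the co-culture bars and 18.4% and 20.8% of the plant alone bars.

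Of the contigs, 3 had reads in every library of 1 group and none in the other. CL1295.Contig12_zju (nucleolin, 2953 bases; the suffix is left out below) had 497.25, 651.53 and 487.5 expected counts in co-culture 1, 2 and 3, against 0 in both plant alone libraries. Its shares of the cluster in co-culture were 9.84%, 13.2% and 8.30% (95% Clopper-Pearson intervals of 9.03 to 10.7, 12.2 to 14.1 and 7.61 to 9.04). Taking 3 counts as the most that a count of 0 allows, its share was up to 0.0752% and 0.0654% in plant alone 2 and 3. Intervals and limits of this kind cover counting error only and not the division of reads between contigs.

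CL1295.Contig9_zju (hnRNP R, 3720 bases) showed the opposite distribution, with 0 in the 3 co-culture libraries against 1005.57 and 813.23 expected counts in plant alone 2 and 3. It made up 25.2% and 17.7% of the cluster in plant alone 2 and 3 (95% Clopper-Pearson intervals of 23.9 to 26.6 and 16.6 to 18.9). In plant alone it was the second most used hnRNP R-hit contig of replicate 2, after CL1295.Contig11.

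CL1295.Contig3_zju (nucleolin, 3052 bases) had 0 in the co-culture libraries as well, against 458.38 and 539.65 expected counts in plant alone 2 and 3. Its shares in plant alone were 11.5% and 11.8%. The limit of 3 counts for CL1295.Contig3 or CL1295.Contig9 was between 0.0511% and 0.0606% of the cluster in the co-culture libraries.

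In levels, CL1295.Contig12 averaged 24.8 ± 6.49 CPM in co-culture (SD, n = 3) and 0 in plant alone, at least 303-fold higher. CL1295.Contig9 averaged 0 in co-culture and 49.6 ± 4.23 CPM in plant alone (SD, n = 2), at least 1107-fold lower. CL1295.Contig3 averaged 0 in co-culture and 27.5 ± 4.96 CPM in plant alone, at least 612-fold lower. These bounds set 3 counts over the whole group against the group with reads, so they loosen by construction when the group at 0 loses a library. On the log2 scale the bound for CL1295.Contig12 was 8.24, and 7.17 without plant alone 2 or 7.31 without plant alone 3. That for CL1295.Contig9 was -10.11, and between -9.59 and -9.46 without 1 of the co-culture libraries, and that for CL1295.Contig3 was -9.26, and between -8.74 and -8.61. Together the 3 contigs took 9.84%, 13.2% and 8.30% of the cluster in co-culture 1, 2 and 3, against 36.7% and 29.5% in plant alone 2 and 3.

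The authors' deposited table pools the counts of each group and includes plant alone reads not analysed here. In the authors' deposited table, CL1295.Contig12 stood at 1636.28 pooled counts in co-culture and 0 in plant alone. CL1295.Contig9 stood at 0 in co-culture and 3474.11 in plant alone in the authors' deposited table, where plant alone 2 and 3 summed to 1818.8. CL1295.Contig3 stood at 0 in co-culture and 1579.11 in plant alone in the authors' deposited table, where plant alone 2 and 3 summed to 998.03. The pooled plant alone column, which covers more reads, thus held none for CL1295.Contig12, and it held more for the other pair of contigs than plant alone 2 and 3 did.

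**Figure D2:**
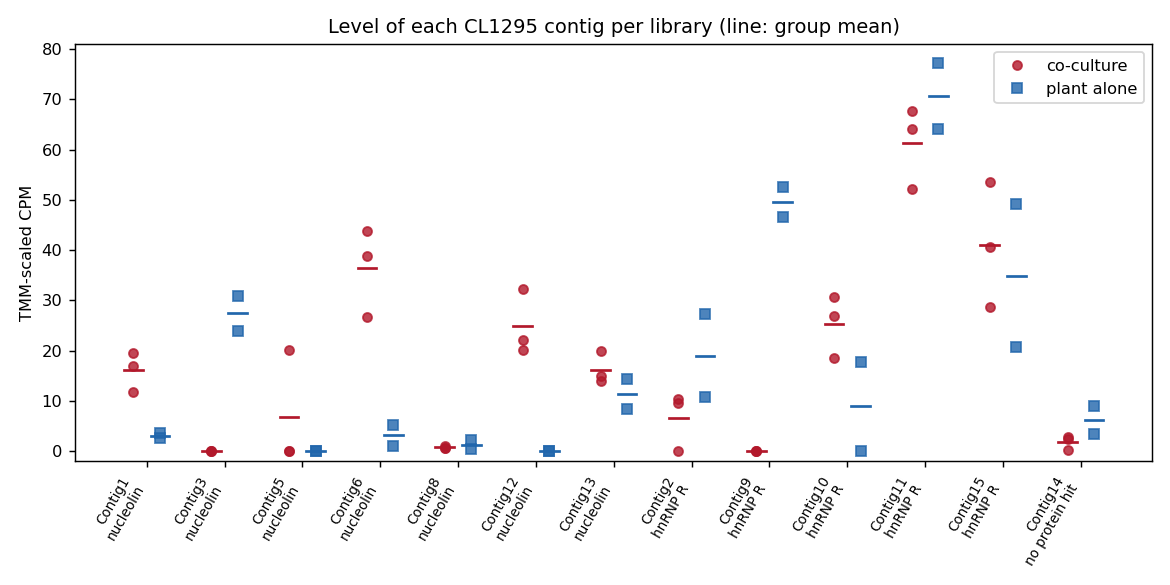
TMM-scaled CPM (vertical axis) of each of the 13 contigs in the co-culture (red circles) and plant alone (blue squares) libraries, with a line at each group mean. CL1295.Contig12 lies between 20.1 and 32.2 CPM in co-culture and at 0 in plant alone, CL1295.Contig9 at 0 in co-culture and between 46.6 and 52.6 CPM in plant alone, and CL1295.Contig3 at 0 in co-culture and between 23.95 and 31.0 CPM in plant alone.

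Among contigs with reads in every library, the widest differences between groups were in nucleolin hits. CL1295.Contig6 (3696 bases) had 43.8, 38.9 and 26.7 CPM in co-culture 1, 2 and 3, against 1.15 and 5.22 CPM in plant alone 2 and 3. Its fitted log2 fold change was 3.52, and its share of the cluster was 15.5% ± 4.25 in co-culture (SD, n = 3) and 1.28% ± 1.02 in plant alone (SD, n = 2). With plant alone 2 left out the log2 fold change was 2.80, and with plant alone 3 left out it was 5.00. CL1295.Contig1 (2906 bases) had 17.02, 11.8 and 19.6 CPM in co-culture, against 2.61 and 3.56 CPM in plant alone, a fitted log2 fold change of 2.38. The groups did not overlap for either contig.

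CL1295.Contig10 (hnRNP R, 2724 bases) had 18.6, 30.7 and 26.9 CPM in co-culture, against 0 and 17.8 CPM in plant alone 2 and 3. The groups did not overlap, and the gap between co-culture 1 and plant alone 3 was small. Its fitted log2 fold change was 1.51 and only 0.50 without plant alone 2, while without plant alone 3, which held its only plant alone reads, the bound was 7.34. The pooled plant alone value in the authors' deposited table, 311.01, equalled the count of plant alone 3 by itself. CL1295.Contig5 (nucleolin, 3888 bases) had reads in co-culture 3 only, at 20.2 CPM or 8.33% of that library's cluster, and its pooled plant alone value in the authors' deposited table was 0.

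On the lower side, CL1295.Contig2 (hnRNP R, 2730 bases) had 9.62, 10.4 and 0 CPM in co-culture 1, 2 and 3, against 10.8 and 27.2 CPM in plant alone 2 and 3. The highest co-culture library was close to the lowest plant alone library, and with DESeq2 size factors in place of TMM the groups overlapped. Its log2 fold change was -1.51, and it was -0.92 without co-culture 3 and -0.68 without plant alone 3. CL1295.Contig14 had 2.94, 0.247 and 2.52 CPM in co-culture, against 9.05 and 3.44 CPM in plant alone, a log2 fold change of -1.71 that was -0.86 without plant alone 2. Its length is a fraction of that of the other contigs, and it has no protein hit.

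The remaining contigs overlapped between the groups. CL1295.Contig11 had 67.7, 64.1 and 52.1 CPM in co-culture, against 77.1 and 64.0 CPM in plant alone. CL1295.Contig15 had 28.7, 40.6 and 53.5 CPM in co-culture, against 20.7 and 49.3 CPM in plant alone, a spread within each group that exceeded the difference between the means. CL1295.Contig13 (nucleolin, 3009 bases) had 13.9, 14.9 and 19.9 CPM in co-culture, against 8.42 and 14.4 CPM in plant alone. CL1295.Contig8 (nucleolin, 2808 bases) was the least used contig with reads in all libraries, at 0.624, 0.989 and 0.742 CPM in co-culture and 2.20 and 0.459 CPM in plant alone.

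In all, 4 contigs lay higher in every co-culture library (CL1295.Contig1, CL1295.Contig6, CL1295.Contig10 and CL1295.Contig12) and 4 lay lower (CL1295.Contig2, CL1295.Contig3, CL1295.Contig9 and CL1295.Contig14). Across all 69984 unigenes tested, 12.8% lay higher and 17.2% lay lower in this sense, 30% in all. The cluster was picked on this contrast, so nothing is read from its counts beside those percentages. No unigene passed the edgeR quasi-likelihood test at a Benjamini-Hochberg adjusted p of 0.05 (0 of 69984, or 0%). Unadjusted, 1925 unigenes (2.75%) were higher and 3111 (4.45%) lower at an edgeR p under 0.05. DESeq2 called 2% of the 65784 unigenes it gave an adjusted p, 629 higher (0.956%) and 684 lower (1.04%).

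Contigs can be compared with each other only per unit of length. FPKM, the authors' value scaled by contig length and library size, was highest for CL1295.Contig11 among contigs with a hit in every library except co-culture 3 and plant alone 3. It stood at 19.7, 16.7 and 17.9 FPKM in co-culture 1, 2 and 3, against 23.2 and 17.7 FPKM in plant alone 2 and 3. In plant alone, CL1295.Contig9 had 14.0 and 11.5 FPKM and CL1295.Contig3 had 7.80 and 9.29 FPKM. In co-culture, CL1295.Contig6 had 11.4, 9.07 and 8.17 FPKM and CL1295.Contig12 had 7.22, 9.42 and 7.72 FPKM. The co-culture ranges of CL1295.Contig6 and CL1295.Contig12 overlapped.

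Sorted by protein hit, the cluster showed a second pattern that the sum over all contigs does not show. The 7 nucleolin-hit contigs together had 97.5, 98.8 and 107.3 CPM in co-culture 1, 2 and 3, against 38.3 and 54.6 CPM in plant alone 2 and 3. All co-culture libraries lay above both plant alone libraries, and the mean was 2.18-fold higher (101.2 ± 5.28 CPM, n = 3, against 46.5 ± 11.5 CPM, n = 2, SD). The 5 hnRNP R-hit contigs together had 124.6, 145.8 and 132.5 CPM in co-culture, against 161.2 and 204.9 CPM in plant alone, with a mean of 134.3 ± 10.7 CPM in co-culture and 183.0 ± 31.0 CPM in plant alone. On the FPKM scale the nucleolin-hit sums again did not overlap, at 28.9, 26.6 and 37.2 FPKM in co-culture and 12.6 and 16.3 FPKM in plant alone. The hnRNP R-hit sums overlapped on that scale, at 40.7, 43.7 and 53.3 FPKM in co-culture and 49.3 and 62.4 FPKM in plant alone. This sorting was made after the values were seen and uses the contrast on which the cluster was picked, so it has no test.

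**Figure D3:**
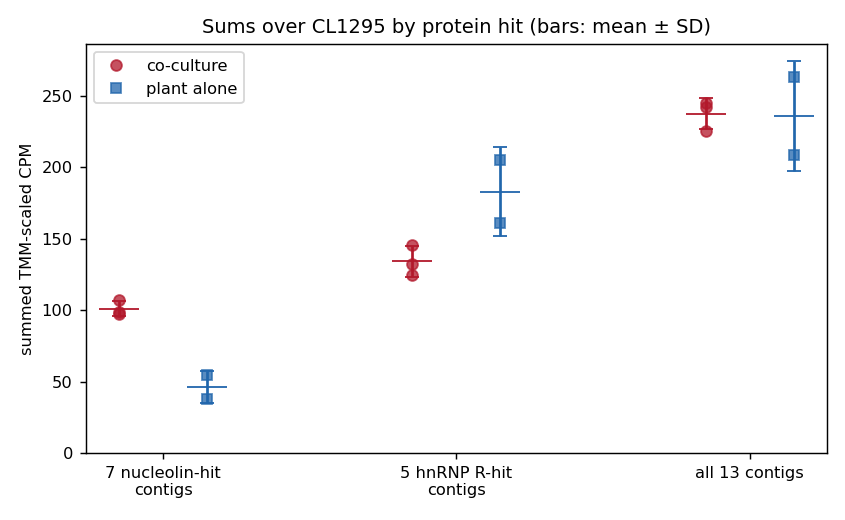
Summed TMM-scaled CPM (vertical axis, from 0) of the 7 nucleolin-hit contigs, the 5 hnRNP R-hit contigs and all 13 contigs, per library for co-culture (red circles) and plant alone (blue squares), with mean ± SD. The nucleolin-hit sums lie between 97.5 and 107.3 CPM in co-culture and at 38.3 and 54.6 CPM in plant alone, while the sums over all contigs overlap.

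As shares, which do not depend on the scaling between libraries, the nucleolin-hit contigs made up 43.3%, 40.4% and 44.3% of the cluster in co-culture 1, 2 and 3, against 18.4% and 20.8% in plant alone 2 and 3. The 95% Clopper-Pearson intervals of the 5 libraries ran between 39.0% and 45.5% in co-culture and between 17.2% and 21.96% in plant alone. The hnRNP R-hit contigs made up 56.5% ± 2.63 in co-culture (SD, n = 3) and 77.6% ± 0.462 in plant alone (SD, n = 2). On FPKM their shares overlapped between the groups, and the short CL1295.Contig14 took 25.7% of cluster FPKM in plant alone 2. The nucleolin-hit shares of FPKM did not overlap, at 37.5% to 38.2% in co-culture and 15.1% and 18.9% in plant alone 2 and 3. Summed from the authors' deposited table, with the plant alone reads not analysed here included, nucleolin-hit contigs made up 42.8% of the pooled co-culture counts and 17.9% of the pooled plant alone counts.

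Contig use also differed within each hit. Among nucleolin-hit contigs, CL1295.Contig3 held 62.5% and 56.7% of counts in plant alone 2 and 3 and none in co-culture. In co-culture 1, 2 and 3, CL1295.Contig6 held 44.96%, 39.4% and 24.9% of them and CL1295.Contig12 held 22.7%, 32.6% and 18.7%. In co-culture 3, CL1295.Contig5 held 18.8% of them, which it did in no other library. Among hnRNP R-hit contigs, CL1295.Contig9 held 32.6% and 22.8% in plant alone 2 and 3, and CL1295.Contig10 held 14.9%, 21.0% and 20.3% in co-culture 1, 2 and 3, against 0% and 8.70% in plant alone. The count-weighted mean contig length was between 3040 and 3086 bases in co-culture and between 3050 and 3128 bases in plant alone.

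The difference in contig use between 2 libraries was measured as the percentage of cluster counts that would have to move to another contig to turn the shares of 1 library into those of the other. Among the co-culture libraries this distance ran from 11.5% (replicates 1 and 2) to 23.1% (replicates 1 and 3). Between the plant alone libraries it was 24.05%. Between the groups it ran from 38.9% (co-culture 2 and plant alone 3) to 61.4% (co-culture 3 and plant alone 2). All distances between groups exceeded all those within groups, and on FPKM shares the same held, with 36.8% to 59.7% between groups and at most 28.5% within them.

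Clusters with a switching contig, present in 1 group and absent from the other, were uncommon in this series. Of 14982 clusters with 2 or more contigs, 138 (0.921%) held a contig with at least 20 counts in every library of 1 group and none in the other. Among the 49160 contigs of such clusters, 0.232% had such reads in co-culture only and 0.0712% in plant alone only. The first needed reads in 3 libraries and 0 in 2, and the second reads in 2 and 0 in 3. The percentages therefore do not compare the directions on equal terms. Contigs of both kinds stood in 4 clusters (0.0267%), and in 2 of these (0.0133%) the sum moved by less than 0.2 on the log2 scale. Those 2 were CL1295 and CL7444, whose hit was CLAVATA2, a receptor-like protein of the shoot meristem, and which had on average 400.8 counts per library, against 4890 for CL1295. CL1295 was the only 1 of the 4 with 3 switching contigs, and it was picked for that pattern.

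Across the 2627 clusters with 3 or more contigs and at least 500 counts in each library, the mean distance in contig use had a median of 13.7% between groups and 12.1% within groups. CL1295 had means of 47.8% between and 19.7% within groups, a difference of 28.0 percentage points, where the median over clusters was 0.559. In all, 7 clusters (0.266%), CL1295 included, had a difference at least as large, and 98 clusters (3.73%) had every distance between groups above every distance within them. The 6 others included CL4796, with a hit to a mitochondrial 3-hydroxyisobutyryl-CoA hydrolase of valine breakdown, and CL1940, with a hit to a DETOXIFICATION transporter. CL7628, with a hit to a SUVH6-like histone methyltransferase, was another. The sums of these clusters had log2 fold changes of 0.56, 0.72 and 0.27. CL6041, with a hit to a BASS5 cotransporter, had a difference of 28.8 percentage points and a sum that, like that of CL1295, had a log2 fold change of 0.02. For CL7266 and CL2653, with hits to uncharacterized proteins, the sums had log2 fold changes of -0.16 and -0.70. These ranks are a description, since the cluster was chosen with this contrast in view.

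**Figure D4:**
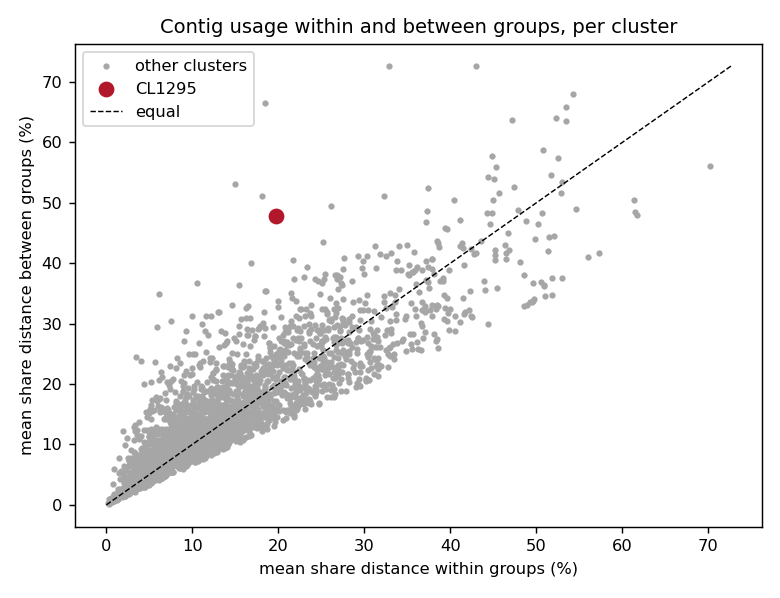
Mean distance in contig use between groups (vertical axis, percent of cluster counts) against that within groups (horizontal axis) for 2627 clusters, with the line of equality dashed. CL1295 (red) lies at 47.8% between and 19.7% within groups, above most clusters, whose medians are 13.7% and 12.1%.

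The search for similar patterns over the 5 libraries covered only unigenes outside the cluster with an annotated product. The most similar of these were contigs of unrelated products. Likeness was the root mean square difference of log2(CPM + 1). CL3401.Contig8, a probable serine/threonine-protein kinase, was closest to both CL1295.Contig3 (0.232) and CL1295.Contig9 (0.498), with 0 CPM in the co-culture libraries and 32.4 and 24.9 CPM in plant alone 2 and 3. A WAT1-related transporter (CL3134.Contig4) and an NADH-dependent glutamate synthase (CL1660.Contig6), an enzyme of ammonium assimilation, followed for both. Their differences were larger, from 0.671 to 1.18. Both had reads in co-culture, at 0.454 CPM (CL3134.Contig4, co-culture 3) and 1.69 CPM (CL1660.Contig6, co-culture 1). Closest to CL1295.Contig12 was a contig of cytoplasmic leucine--tRNA ligase (CL5428.Contig3, 0.237), which charges leucine tRNA, with 18.3, 33.5 and 14.4 CPM in co-culture and 0 in plant alone. It was followed by contigs of a SUVH6-like histone methyltransferase (CL7628.Contig4, 0.623) and an Ole e 1 pollen allergen-like protein (CL4584.Contig7, 0.664). CL4584.Contig7 had 0.680 CPM in plant alone 2. Their clusters' sums had log2 fold changes of -0.20 (kinase), -1.87 (WAT1-related), 0.15 (glutamate synthase), 0.16 (tRNA ligase), 0.27 (SUVH6-like) and 3.12 (Ole e 1-like). With Pearson correlation as the measure 0 of these 9 matches remained.

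The list of other nucleolin unigenes held 2 DESeq2 calls. Of 29 such unigenes outside CL1295, 23 were tested and 0 passed edgeR at an adjusted p of 0.05, with 1 higher and 1 lower at an unadjusted p under 0.05 (2.75% and 4.45% of all unigenes). DESeq2 called 1 higher and 1 lower (0.956% and 1.04% of all unigenes). Both calls were contigs of CL3600, whose hit is a pineapple nucleolin 2. CL3600.Contig1 had 27.3, 50.2 and 80.0 CPM in co-culture 1, 2 and 3, against 13.9 and 9.75 CPM in plant alone 2 and 3 (DESeq2 log2 fold change 2.19 ± 0.64, SE; DESeq2 adjusted p = 0.0403). CL3600.Contig2 had 35.0, 29.9 and 40.7 CPM in co-culture, against 76.7 and 70.8 CPM in plant alone (DESeq2 log2 fold change -1.04 ± 0.30, SE; DESeq2 adjusted p = 0.0364). The sum over CL3600 had a log2 fold change of 0.04. The DESeq2 call of CL3600.Contig1 was lost without plant alone 3, and that of CL3600.Contig2 without co-culture 1, in a check added after the data were seen.

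Of the 4 nucleolin unigenes outside CL1295 with the highest mean CPM, CL3600.Contig2 did not overlap between the groups and the other 3 did. Over the 23 tested members, 1 lay higher without overlap and 5 lower, against 12.8% and 17.2% of all unigenes tested. CL2476.Contig3, also with an oil palm nucleolin hit, had 67.6, 118.5 and 70.0 CPM in co-culture, against 54.5 and 80.8 CPM in plant alone. CL11874.Contig1 had 60.9, 51.9 and 42.6 CPM in co-culture, against 60.1 and 69.4 CPM in plant alone, and Unigene4264 had 38.0, 42.2 and 64.4 CPM, against 44.1 and 46.1 CPM. The median log2 fold change of the 23 tested members was -0.12, against 0.0013 over all unigenes. Without plant alone 3 it was 0.26, against 0.13 over all unigenes.

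The next list, called ribosomal RNA processing, was matched by words in product names of nucleolar and ribosome assembly proteins. It held 196 unigenes, of which 179 were tested. None passed edgeR at an adjusted p of 0.05. At an unadjusted edgeR p under 0.05, 2 were higher and 2 lower, below the 2.75% and 4.45% of all unigenes. The median log2 fold change of the list was -0.05. It turned to 0.02 without co-culture 2 and 0.17 without plant alone 3, against -0.02 and 0.13 over all unigenes. DESeq2 called 1 higher and 1 lower, against 0.956% and 1.04% of all unigenes. The higher call was a contig of nucleolar protein 10 (CL13368.Contig2), with 0, 16.96 and 14.2 CPM in co-culture 1, 2 and 3 and 0 in plant alone (DESeq2 adjusted p = 0.0496), lost without either plant alone library, and untested by it without co-culture 2 or 3. The lower call was FCF1 (Unigene23024), a protein of the small-subunit processome, with 0 in co-culture against 3.61 and 3.50 CPM in plant alone, at least 79.3-fold lower (DESeq2 adjusted p = 2.92e-05).

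The abundant members of that list did not pass either test. The H/ACA ribonucleoprotein subunit 1 contig CL3489.Contig2, of the complex that guides pseudouridylation, had 685.9, 352.4 and 555.4 CPM in co-culture, against 179.9 and 283.5 CPM in plant alone, with no overlap of the groups (DESeq2 adjusted p = 0.247). NSA2 (CL12203.Contig3), a factor of large-subunit assembly, had 521.8, 686.4 and 403.6 CPM in co-culture, against 383.2 and 660.7 CPM in plant alone. Pescadillo (CL7107.Contig3), another large-subunit factor, had 455.7, 398.0 and 312.8 CPM in co-culture, against 326.7 and 529.8 CPM in plant alone. Nucleolar GTP-binding protein 1 (CL11677.Contig3) had 417.6, 414.5 and 176.5 CPM in co-culture, against 362.2 and 561.6 CPM in plant alone.

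RNA polymerase I, which transcribes ribosomal RNA genes, had 10 unigenes, all tested, and neither edgeR nor DESeq2 called any at an adjusted p of 0.05. Unadjusted, 1 unigene was higher and 1 lower at an edgeR p under 0.05, where 2.75% and 4.45% of all unigenes were. The median log2 fold change was 0.22. It ran from 0.08 without plant alone 2 to 0.57 without plant alone 3, against 0.18 and 0.13 over all unigenes. The initiation factor RRN3 (Unigene41661) had 74.98, 75.5 and 56.7 CPM in co-culture, against 66.5 and 146.4 CPM in plant alone. The largest subunit (CL4665.Contig3) had 36.2, 31.0 and 45.03 CPM in co-culture, against 23.7 and 43.1 CPM in plant alone. The subunit contigs RPA12 (Unigene45760) and RPA49 (Unigene17752) overlapped as well, from 30.6 to 62.1 CPM in co-culture and from 28.3 to 57.3 CPM in plant alone.

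The last list was matched by words in product names of hnRNPs and other RNA-binding proteins, without a check for RNA recognition motifs. The match also took in a protein named as a partner of polyadenylate-binding proteins. It was the longest list, with 283 unigenes, of which 252 were tested. None passed edgeR at an adjusted p of 0.05, with 8 higher and 7 lower at an unadjusted p under 0.05 (2.75% and 4.45% over all unigenes). The median log2 fold change was 0.10, or 0.23 without plant alone 3, against 0.13 over all unigenes in that setting. DESeq2 called 4 of 246 higher and 0 lower, against 0.956% and 1.04% over all unigenes, or 2% in either direction. Nothing is read from so few calls. A polyadenylate-binding protein 2 contig (CL10002.Contig4), which binds messenger RNA tails, had 2.76, 3.02 and 1.69 CPM in co-culture and 0 in plant alone, at least 30.3-fold higher (DESeq2 adjusted p = 0.000341). A polyadenylate-binding protein-interacting protein 7 contig (CL4301.Contig4) had 1.38, 0.791 and 2.19 CPM in co-culture and 0 in plant alone (DESeq2 adjusted p = 0.00738), lost without co-culture 3. A polypyrimidine tract-binding protein contig (CL3764.Contig7), of a family of splicing regulators, had 3.83, 5.83 and 6.68 CPM in co-culture, against 0 and 0.459 CPM in plant alone (DESeq2 adjusted p = 0.0203), lost without co-culture 1 or co-culture 3. The sums over their clusters had log2 fold changes of -0.02, 0.01 and 0.20.

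The abundant RNA-binding unigenes were not called. Glycine-rich RNA-binding protein GRP1A (Unigene5856), whose Arabidopsis relatives act in the circadian clock and in cold, had 252.8, 404.2 and 559.4 CPM in co-culture, against 241.2 and 197.2 CPM in plant alone, with no overlap (DESeq2 adjusted p = 0.477). RBP45 (Unigene5136) had 394.1, 387.0 and 232.6 CPM in co-culture, against 326.2 and 513.3 CPM in plant alone. The hnRNP 1 contigs CL9933.Contig2 and CL4740.Contig2 overlapped between the groups, with 271.4, 245.9 and 329.3 CPM for the first in co-culture, against 212.9 and 383.3 CPM in plant alone.

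**Figure D5:**
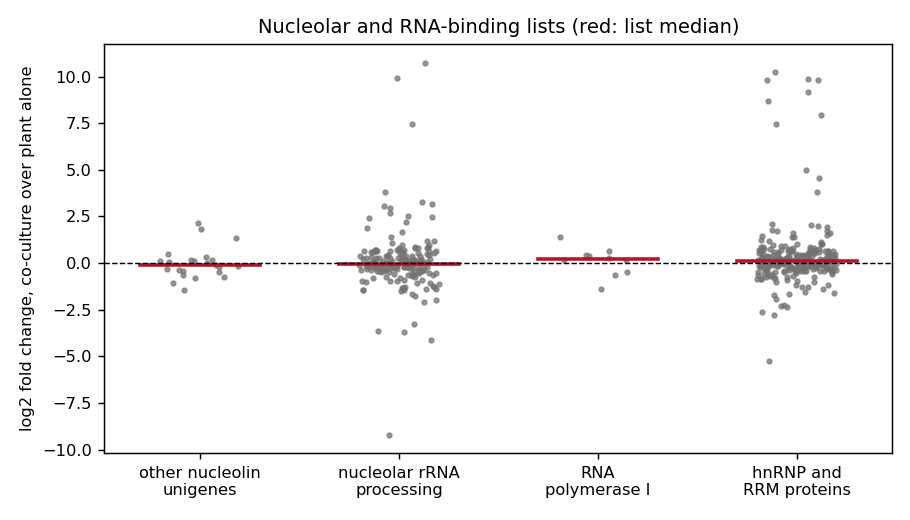
Fitted log2 fold change of co-culture over plant alone (vertical axis) of the tested unigenes of each list, 1 point each, with the list median in red and the median over all unigenes dashed. The medians lie between -0.12 and 0.22, and points beyond 5 in either direction include unigenes with a group at 0, whose fitted value is not a measured fold.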

How the data were processed

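Libraries of leaf RNA were grouped by their titles in the labels, 3 of co-culture and 2 of plant alone. For every unigene with reads, the deposited files held an expected count and an FPKM, per the file headers. The submitters' processing notes list Bowtie2, RSEM and DESeq2 with no version; no source used here gives the assembly method. In the authors' deposited comparison, per the file headers, columns of pooled counts, log2 ratios, p-values and q-values stand side by side, and only pooled counts are printed here. Its plant alone column sums to 59625013, where plant alone 2 and 3 sum to 37498927.

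Unlisted unigenes were set to 0 and expected counts rounded to whole numbers. edgeR 4.0.16 (R 4.3.3) was fitted across all unigenes and across cluster sums with its default low-count filter, TMM scaling and quasi-likelihood tests, with Benjamini-Hochberg adjustment at 0.05. DESeq2 1.42.0 was the alternative; unigenes to which it gave no adjusted p stayed uncalled. Scripts were tested on simulated data. Other alternatives were size factors, no filter, a replicate block, other count minimums and each library left out. Contigs and the 4 lists were chosen with earlier results of these data known. Lists were built from words in product names. Named were all CL1295 contigs and, for each switching contig, the 3 nearest patterns among unigenes with an annotated product. From each list the 4 members with the highest mean CPM and up to 3 DESeq2 calls in each direction were named. That ranking is not scaled by unigene length.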

Additional observations from a re-analysis of the deposited data

How the results depend on the processing

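The number of libraries, 5, limits the precision of every value, and the part of the estimator that divides reads among contigs was not tested. Scaling, the low-count filter and DESeq2 gave log2 fold changes of the CL1295 sum between 0.05 and 0.08, and leaving out 1 library gave -0.10 to 0.18, the highest without plant alone 3. The distance in contig use between group means was 45.1% on counts, 43.3% on FPKM and 39.1% to 54.4% with 1 library left out. The number of contigs without overlap was 8, 7 with DESeq2 size factors, and 8 to 12 with 1 library left out. It reached 12 without plant alone 3, when 1 plant alone library remains. Leaving out a library makes non-overlap easier by construction. The share over all unigenes was 30% with all libraries and is not given here for the other settings. Nothing is therefore read from these counts. For the sums by protein hit, alternatives chosen after seeing the data gave log2 ratios of 0.89 to 1.40 (nucleolin) and -0.61 to -0.26 (hnRNP R) with 1 library left out, each on the same side of 0 as with all libraries (1.12 and -0.45). The median over all unigenes shifted to 0.18 without plant alone 2 and 0.13 without plant alone 3. Without plant alone 2, CL1295.Contig8 turned to a log2 fold change of 0.76. At minimums of 10 and 50 counts, clusters with a switching contig numbered 239 and 54, and those with both directions 7 and 2. Those that also had a small sum change numbered 3 and 1. With 1 library left out, which makes the criterion easier by construction, these counts in the same order were 262 to 864, 7 to 50 and 4 to 11. DESeq2 called 1313 unigenes and 812 cluster sums where edgeR called 0, and 2, 2 and 4 members of the nucleolin, rRNA processing and hnRNP lists. With 1 library left out, edgeR called 0 unigenes and 0 to 230 cluster sums, 230 without co-culture 3; the cause was not tested. The replicate numbers 2 and 3 occur in both groups, but nothing in the labels ties them, and the deviations of same-numbered libraries correlated at 0.0677 and 0.109. With a replicate block, edgeR still called 0 unigenes, 0 cluster sums and 0 members of each list, and the CL1295 sum had a log2 fold change of 0.06.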
